A study of Mus musculus with 25 samples.

Results

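The comparison described here is daily gonadotropin-releasing hormone (GnRH) against placebo in the pituitaries of female hypogonadal mice. It takes in 11 of the 25 animals of the study, 5 that received placebo and 6 that received GnRH, chosen by their labels of sex and treatment (animals 1 to 5 and 6 to 11 in the labels' numbering). Every animal, controls included, was hpg/hpg, a genotype with a deletion in the GnRH gene, so that none had GnRH of its own. According to the protocols in the labels, GnRH animals received 1 µg by intraperitoneal injection on each of 10 days, placebo animals received saline in the same way, and all were killed 1 hour after the last injection. Ages are not stated in the labels, and no group had a single injection, so a response to the last dose and a response to repeated doses cannot be told apart. The gland was ground whole, hence each value is an average over all of its cells. The study also holds 6 placebo and 8 GnRH males of the same genotype, used here to estimate the spread of each gene and for 1 side-by-side comparison. Their 8 GnRH animals exceed the 5 to 7 per condition of the design text, and the sample labels were used.

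GnRH is released from hypothalamic neurons into the blood vessels that supply the pituitary and binds its receptor, Gnrhr, on gonadotropes, a minority of the cells of the anterior lobe. The receptor couples to Gq proteins, which start calcium and protein kinase C signalling and the MAP kinase cascade, and immediate early transcription factors such as Fos, Jun, Egr1 and Atf3 are induced downstream. Gonadotropes answer with follicle-stimulating hormone (FSH) and luteinizing hormone (LH), each made of the common alpha subunit, Cga, and its own beta subunit, Fshb or Lhb. The other endocrine cells of the gland make growth hormone, prolactin, thyroid-stimulating hormone and the products of Pomc, and they share the tissue with stem cells, vessels, blood cells and, where it is included, the posterior lobe.

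Values were regularized log2 values, so that a difference of 1 stands for a doubling on that scale, and low genes are pulled towards their mean. The library depth is unknown. Correlations between the 11 female libraries lay between 0.9925 and 0.998, and the sex-linked genes fitted the label in 11 of 11. Of 19141 genes with a mean value of at least 3, 19 passed a threshold of 0.05 on the adjusted p (limma, Benjamini-Hochberg) in the higher direction, 0.0993% of those tested. No gene passed in the lower direction (0 genes, 0%). At an unadjusted limma p under 0.05, 979 genes were higher (5.11%) and 852 lower (4.45%). The groups did not overlap, every GnRH animal on 1 side of every placebo animal, for 101 genes in the higher direction (0.528%) and 46 in the lower direction (0.24%). The counts given for lists below are to be read beside these shares. The median difference over all genes was 3e-04, and 97.4% of the genes lay between -0.25 and 0.25. Genes that differed by at least 0.5 numbered 62, and those that differed by -0.5 or lower numbered 2.

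**Figure D1:**
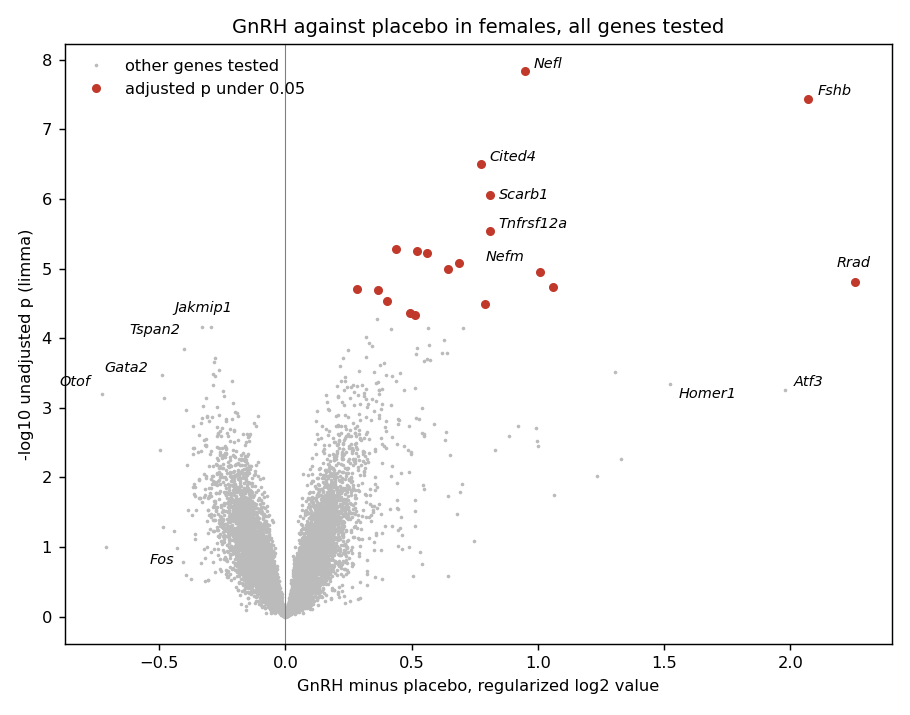
Difference between GnRH and placebo females for each of the 19141 genes tested (x axis, regularized log2 value) against the unadjusted limma p on a -log10 scale (y axis). The 19 genes past the adjusted threshold, in red, all lie on the higher side, and Atf3 and Homer1 lie far to the right below them.

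The 11 libraries did not separate by treatment along the leading axis of variation. The first principal component held 32% of the variance, with GnRH animals 10 and 9 at its ends (19.2 and -18.0). On the second component, with 15.7% of the variance, 5 of the 6 GnRH animals had negative scores while animal 10 scored 9.77. Animal 10 was the lowest of the GnRH animals in 14 of the 19 genes past the threshold and among the lowest pair in 17. Its mean excess over the placebo mean in these genes was 0.39, against 0.75 to 1.02 in the other GnRH animals. Fitted without it, 60 genes passed in the higher and 7 in the lower direction. Leaving out any other single female gave 4 to 17 higher calls. Animal 10 was singled out by its low values in these same data, so leaving it out favours wider differences and more calls. All results below keep animal 10 unless it is said otherwise.

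Fshb (chr2:107056140-107059656, minus strand, GRCm38) encodes the subunit that sets the rate of FSH assembly. The promoters of Fshb and Atf3 are shown because the series asks, by its title, about ATF3 and FSHβ, and that of Chga because it alone among the genes that rose holds in its window the variant cyclic AMP response element found next to the start of Atf3. Each runs 5′ to 3′ on the gene's own strand, from 250 bases before to 50 bases after the RefSeq start (RefSeq, GRCm38.p6).
Fshb, chr2:107059602-107059901, minus strand: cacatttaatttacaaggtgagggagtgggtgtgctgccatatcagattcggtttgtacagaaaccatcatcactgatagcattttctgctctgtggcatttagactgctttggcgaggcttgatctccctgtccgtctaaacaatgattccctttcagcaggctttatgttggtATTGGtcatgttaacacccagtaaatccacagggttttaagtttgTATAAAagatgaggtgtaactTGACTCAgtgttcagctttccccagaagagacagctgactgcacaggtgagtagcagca
Atf3, chr1:191183284-191183583, minus strand: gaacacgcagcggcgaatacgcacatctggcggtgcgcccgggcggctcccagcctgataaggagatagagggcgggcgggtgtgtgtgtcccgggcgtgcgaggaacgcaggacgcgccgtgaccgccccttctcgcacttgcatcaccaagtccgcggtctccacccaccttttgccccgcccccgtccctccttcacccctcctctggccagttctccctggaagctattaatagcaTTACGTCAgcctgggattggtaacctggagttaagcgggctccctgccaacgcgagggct
Chga, chr12:102554691-102554990, plus strand: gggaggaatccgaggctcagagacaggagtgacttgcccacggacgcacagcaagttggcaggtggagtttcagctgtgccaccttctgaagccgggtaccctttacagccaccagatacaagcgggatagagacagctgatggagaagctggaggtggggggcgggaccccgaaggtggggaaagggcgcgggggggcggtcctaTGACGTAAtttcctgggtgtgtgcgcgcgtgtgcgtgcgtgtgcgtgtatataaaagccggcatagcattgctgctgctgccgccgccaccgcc
In Fshb the capitals mark a CCAAT box read on the other strand (-75 to -71), a TATA box (-30 to -25) and a match to the AP-1 motif (-9 to -3), counted from the start site. The capitals in Atf3 (-10 to -3) and Chga (-44 to -37) mark TTACGTCA on either strand, a variant of the CRE bound by ATF and CREB proteins. Left in lower case are TATAAA in Chga (6 to 11) and CCAAT read on the other strand in Atf3 (6 to 10), both after the start. All distances are from the RefSeq start used. The Atf3 window is at a RefSeq start inside the gene's annotated span, which on the minus strand begins upstream, at 191218039. A window was found for 11 of the 19 genes that rose, 14 windows in all. Searched on both strands over 32851 windows of 27025 genes, the AP-1 motif TGANTCA was in 7.81% of windows, and among the genes that rose it was in those of Fshb and Tbkbp1. The variant TTACGTCA was in 0.499% of windows, and among the genes that rose it was in that of Chga. The full CRE, TGACGTCA, was in 1.79% of all windows, and the CArG box bound by serum response factor in 1.63%. Neither was in a window of a gene that rose. The zinc-finger motif GCGNGGGCG of EGR factors was in 5.55% of windows and, as a pair of overlapping matches, in that of Tnfrsf12a. CCAAT was in 37.4% of windows on either strand, and TATAAA in 8.32% on the gene's own strand. A match to letters is not evidence of binding.

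In the placebo females Fshb stood at 10.65, 9.80, 9.49, 9.25 and 9.65, and in the GnRH females it ran from 11.13 through a median of 11.92 to 12.41. Every GnRH animal lay above every placebo animal, and placebo animal 1 was the highest of its group. Fshb rose by 2.07 (SE 0.27, adjusted p = 0.000347), a 4.20-fold difference. In whole glands, more gonadotropes and more RNA per gonadotrope cannot be told apart. For Atf3 (chr1:191170296-191218039, minus strand), the placebo values were 6.30, 6.32, 6.12, 6.21 and 6.06, while the GnRH values were 9.26, 8.68, 8.96, 7.68, 6.55 and 7.95 in animals 6 to 11. The placebo animals sat within a narrow band and the GnRH animals were spread widely above it, animal 10 nearest to it. The Atf3 difference was 1.98 (SE 0.51, limma adjusted p = 0.135), short of the threshold over all genes. Its SD was 1.00 in the GnRH group (n = 6) and 0.11 in placebo (n = 5). The fit also draws its spread from the males, where the SD with GnRH was 1.39 (n = 8). Taken alone, Fshb and Atf3 gave two-sided exact permutation p = 0.00216 and p = 0.00433, where 0.00216 is the smallest that 5 against 6 animals allow. These 2 and 6 other genes were tested in this way, and the permutation p are given without adjustment for the 8 tests.

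The other products that define gonadotropes were also above placebo in mean but did not pass. Cga was at 14.48, 14.13, 14.41, 14.39 and 14.85 in placebo and ran from 14.67 to 15.43 (median 14.82) with GnRH. Its difference was 0.49 (SE 0.17, adjusted p = 0.355), and 3 of 6 GnRH animals exceeded every placebo animal. Lhb was at 10.11, 10.80, 10.13, 10.78 and 10.49 in placebo and ran from 10.49 to 11.11 (median 10.96) with GnRH. The placebo values were spread from 10.11 to 10.80, and GnRH animal 9, at 10.49, was the lowest of its own group and inside that range. The Lhb difference was 0.45 (SE 0.13, adjusted p = 0.207). Gnrhr, the receptor itself, was at 9.68, 9.13, 8.75, 9.30 and 9.28 in placebo and ran from 9.23 to 10.32 (median 9.82) with GnRH. The groups overlapped, and the difference was 0.59 (SE 0.17, adjusted p = 0.221). Exact permutation tests of the single genes gave p = 0.0195 for Cga, p = 0.0346 for Lhb and p = 0.0281 for Gnrhr. Over the list of 6 gonadotrope products, with Serpine2 (0.37) and Tgfbr3l (0.07), all 6 differences were positive with a median of 0.47, 1 gene rose over all genes and 5 had an unadjusted p under 0.05. Up to 138 of the 678 exon bases of Lhb and 305 of the 954 of Cga are shared with genes on the opposite strand, Ruvbl2 and Platr9, and the strand setting of the counting is not given in the sources used here.

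Transcription factors of the gonadotrope lineage were mostly below placebo. Of 13 tested, 9 had a negative difference, the median was -0.09, and 4 were lower and 1 higher at an unadjusted p under 0.05, none past the adjusted threshold. Gata2, a zinc-finger factor that acts with Pit1 in thyrotropes and drives gonadotrope genes, was at 11.06, 10.99, 10.86, 11.27 and 11.02 in placebo and ran from 10.23 to 10.82 (median 10.52) with GnRH. All 6 GnRH animals lay below all placebo animals, with a difference of -0.49 (SE 0.12, adjusted p = 0.12), and without animal 10 Gata2 was among the 7 genes past the threshold in the lower direction. Foxl2, a forkhead factor required for Fshb expression, differed by -0.39 (SE 0.11, adjusted p = 0.18), with 4 of 6 animals below all placebo values. Nr5a1, the nuclear receptor SF-1 of the gonadotrope lineage, differed by -0.36 (SE 0.14, adjusted p = 0.394), with animal 10 at 10.07 and the other GnRH animals between 9.42 and 9.60. Isl1, a LIM homeodomain factor of the same lineage, lay on the opposite side, with a difference of 0.47 (SE 0.15, adjusted p = 0.268) and all 6 GnRH animals above placebo. Isl1 and Nr5a1 were picked from the list after their values were seen.

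Neurofilament subunits build the intermediate filaments of neurons and are also found in endocrine cells with processes. Of these, Nefl was among the clearest differences. Nefl (chr14:68083863-68089095, plus strand) was at 7.71, 7.59, 7.50, 7.80 and 7.41 in placebo and ran from 8.06 to 8.85 (median 8.55) with GnRH. The groups did not overlap, and Nefl rose by 0.95 (SE 0.12, adjusted p = 0.000279), the smallest p of all genes tested. Nefm (chr14:68082590-68124846, minus strand) was at 8.82, 8.62, 8.73, 8.98 and 8.64 in placebo and ran from 8.73 to 10.16 (median 10.02) with GnRH. Animal 10, at 8.73, was within the placebo range and the other 5 were all above it. Nefm rose by 1.01 (SE 0.19, adjusted p = 0.0197), a call that was lost in 7 of the 11 fits that left out 1 female. The annotated exons of the pair overlap on opposite strands by 1108 bases, 32.8% of those of Nefl and 19.2% of those of Nefm, and reads from the shared bases cannot be told apart without strand. The other filament genes of the list of 8, Nefh, Ina, Prph, Nes, Gfap and Vim, differed by -0.09 to 0.38, and none of these 6 passed.

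Genes of the actin cytoskeleton and LIM proteins, many of them targets of serum response factor (SRF), formed the pathway list with the most members past the unadjusted p. All 19 tested had a positive difference, against 50.1% of all genes, with a median of 0.30 against 3e-04 over all genes. Of the 19, 2 rose over all genes, 11 were higher at an unadjusted limma p under 0.05 and 5 did not overlap. The same shares over all genes tested were 0.0993%, 5.11% and 0.528%. This list, like the others, was written with earlier results of these data known, so the comparison with all genes only describes it. Csrp2, a LIM protein of muscle and vessel walls, was at 8.24, 8.00, 7.89, 8.09 and 8.09 in placebo and ran from 8.37 to 9.08 (median 8.70) with GnRH. Every treated animal exceeded every control, and Csrp2 rose by 0.64 (SE 0.12, adjusted p = 0.0192). Pdlim7, a PDZ and LIM protein that tethers signalling proteins to actin, was at 9.65, 9.99, 9.80, 9.91 and 9.78 in placebo and ran from 10.07 to 10.34 (median 10.18) with GnRH. It too was without overlap, and rose by 0.37 (SE 0.07, adjusted p = 0.0258). Zyx, the focal adhesion protein zyxin, had a difference of 0.42 (adjusted p = 0.0562) with 6 of 6 animals above placebo. Among members picked after their values were seen, Actb and Tpm1, which encode beta-actin and a tropomyosin, differed by 0.31 and 0.30 (adjusted p = 0.148 and 0.249) with 6 of 6 above placebo. Tagln, a smooth muscle gene, differed by 0.48 (adjusted p = 0.279), with GnRH animals 6 and 7 at 8.53 and 8.54 and the other 4 between 7.51 and 7.69. Pericyte and fibroblast markers, the cells that could carry such genes, had a median difference of 0.03 over 10 genes, 5 of them positive, and a list mean of 9.11 to 9.60 in placebo and 9.23 to 9.71 with GnRH. Endothelial markers had a median of 0.15 over 12 genes, 11 of them positive, and the part of either in the cytoskeletal differences was not tested.

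**Figure D2:**
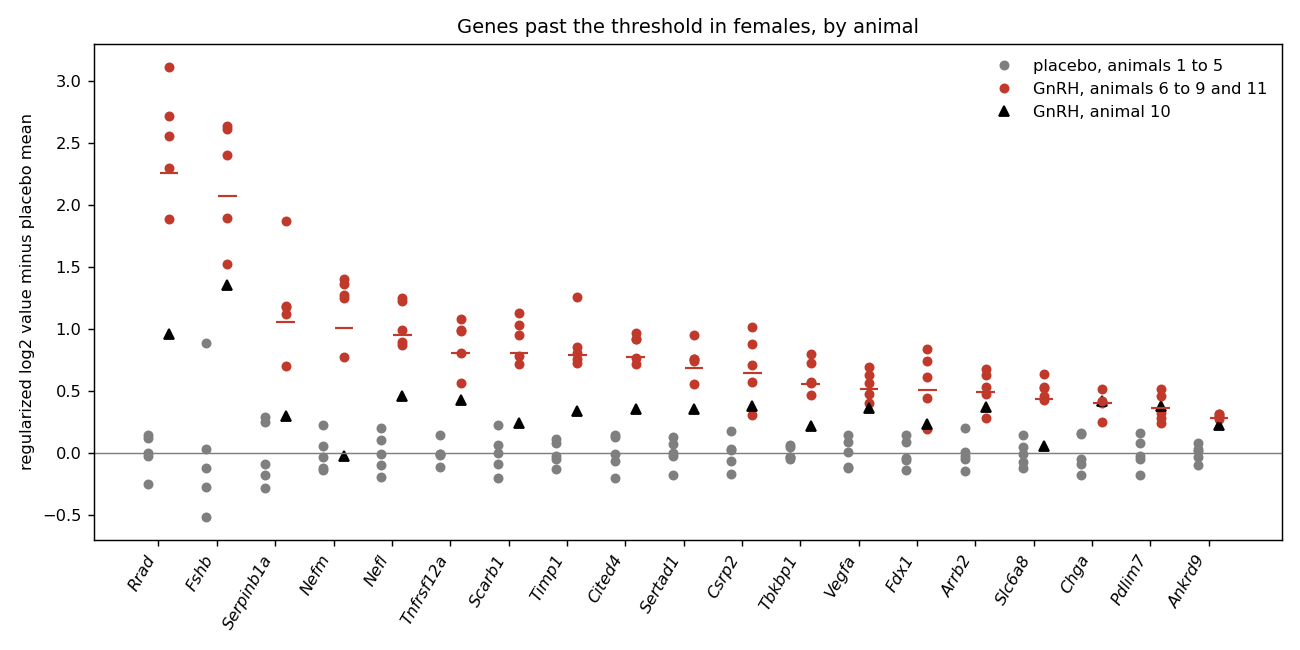
Regularized log2 value minus the placebo mean (y axis) for the 19 genes that rose in GnRH females (x axis), 1 point per animal, with a red bar at the GnRH mean. Fshb and Rrad have the widest gap, and GnRH animal 10 (black triangle) falls nearest to placebo in most genes, inside the placebo range for Nefm and Slc6a8.

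Among signalling genes the difference was largest for Rrad (chr8:104628070-104631327), a small GTPase of the RGK family that inhibits voltage-gated calcium channels. Rrad was at 7.32, 7.17, 7.19, 6.94 and 7.34 in placebo and 9.91, 9.75, 10.31, 9.08, 8.15 and 9.49 in GnRH animals 6 to 11. The groups were well apart, and GnRH animals varied far more than placebo, with an SD of 0.76 (n = 6) against 0.16 (n = 5). Rrad rose by 2.26 (SE 0.43, adjusted p = 0.0245), a call that was lost in 9 of the 11 fits that left out 1 female. In the list of 15 RGK proteins and calcium channel subunits Rrad stood alone past the threshold, the median was -0.01, and Rem2, a related GTPase, differed by 0.30 (adjusted p = 0.324). Arrb2, a beta-arrestin that uncouples and internalizes receptors, was at 9.68, 10.02, 9.78, 9.80 and 9.83 in placebo and ran from 10.10 to 10.50 (median 10.32) with GnRH. It rose by 0.49 (SE 0.10, adjusted p = 0.0458) without overlap. The other 15 tested RGS proteins, arrestins and receptor kinases did not pass, and the list median was 0.03. Upstream of these, the 20 genes of Gq, phospholipase C and IP3 signalling had a median of -0.06, with 3 higher and 3 lower at an unadjusted p under 0.05, and the 19 genes of the MAP kinase cascade a median of 0.03, with 1 higher and 3 lower.

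Tnfrsf12a (chr17:23675445-23677468), the receptor of the cytokine TWEAK, was at 8.37, 8.53, 8.27, 8.38 and 8.37 in placebo and ran from 8.81 to 9.47 (median 9.28) with GnRH. No treated animal reached down to the controls, and Tnfrsf12a rose by 0.81 (SE 0.14, adjusted p = 0.0111). Tbkbp1, an adaptor of the kinase TBK1 in innate immune signalling, was at 8.56, 8.57, 8.67, 8.65 and 8.55 in placebo and ran from 8.82 to 9.40 (median 9.17) with GnRH. It rose by 0.56 (SE 0.10, adjusted p = 0.0144), again without overlap. In the list of 19 TNF receptor and NF-κB genes, which holds Tnfrsf12a, 16 differences were positive, the median was 0.10, 6 had an unadjusted p under 0.05 in the higher direction and 0 in the lower. Icam1, an adhesion molecule, differed by 0.57 (adjusted p = 0.0827), with 5 of 6 animals above placebo. Relb, an NF-κB subunit, and Tnfsf12, which encodes TWEAK, were picked after their values were seen and differed by 0.37 and 0.26 (adjusted p = 0.133 and 0.24), each with 6 of 6 above placebo. Macrophage markers, another source of such genes, differed by a median of 0.08 over 12 genes, 10 of them positive and 0 past the threshold. Their list mean was 7.30 to 7.66 in placebo and 7.43 to 7.75 with GnRH, and their part in these differences was not tested.

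The coregulators Cited4, a partner of the acetyltransferases CBP and p300, and Sertad1, which acts with E2F factors and cyclin-dependent kinases, both rose. Cited4 was at 7.18, 7.33, 6.98, 7.31 and 7.12 in placebo and ran from 7.54 to 8.15 (median 8.03) with GnRH. Sertad1 was at 7.72, 7.78, 7.47, 7.65 and 7.63 in placebo and ran from 8.00 to 8.60 (median 8.40) with GnRH. Neither overlapped, with rises of 0.77 (SE 0.12, adjusted p = 0.00204) for Cited4 and 0.69 (SE 0.13, adjusted p = 0.0175) for Sertad1. The other 5 members of both families differed by -0.14 to 0.24 without passing.

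Scarb1 (chr5:125277087-125341094), the receptor that takes up cholesterol from high-density lipoprotein, was at 9.84, 9.73, 9.99, 10.15 and 9.92 in placebo and ran from 10.16 to 11.06 (median 10.79) with GnRH. The lowest treated animal, number 10, was only just above the highest control, and the others were well above. Scarb1 rose by 0.81 (SE 0.13, adjusted p = 0.00421). Fdx1, the ferredoxin that passes electrons to mitochondrial steroid-forming enzymes, was at 8.14, 8.42, 8.23, 8.22 and 8.36 in placebo and ran from 8.47 to 9.11 (median 8.80) with GnRH. Its groups were also apart, and it rose by 0.51 (SE 0.11, adjusted p = 0.0474). In the list of 16 tested genes of cholesterol transport and mitochondrial steroid enzymes the median was 0.03 and 5 were higher and 0 lower at an unadjusted p under 0.05. Soat1, which esterifies cholesterol, and Star, which moves it into mitochondria, were picked after their values were seen. They differed by 0.42 and 0.23 (adjusted p = 0.245 and 0.467), each with 5 of 6 animals above placebo and animal 10 below the placebo median. Sterol synthesis genes had a median of -0.01 over 19 genes, 1 higher and 0 lower at an unadjusted p under 0.05, the higher one being Pmvk of the mevalonate pathway (0.32, adjusted p = 0.172).

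Chga, the granule protein chromogranin A, was at 15.45, 15.65, 15.32, 15.66 and 15.41 in placebo and ran from 15.74 to 16.01 (median 15.91) with GnRH. The groups did not overlap, and Chga rose by 0.40 (SE 0.08, adjusted p = 0.0349). Of the other 6 granins, Vgf, a granin precursor of several peptides, differed by 0.92 (adjusted p = 0.221) with 6 of 6 animals above placebo, and the remaining 5 lay between -0.07 and 0.22. Vegfa, the growth factor of vessels, was at 10.22, 10.10, 10.35, 10.30 and 10.09 in placebo and ran from 10.57 to 10.90 (median 10.73) with GnRH. Again without overlap, it rose by 0.52 (SE 0.09, adjusted p = 0.0144). The other 20 hypoxia and glycolysis genes of its list did not pass, and the list median was -0.02.

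The protease inhibitor Serpinb1a, which acts inside cells on neutrophil-type proteases, was at 7.88, 8.26, 7.79, 8.22 and 7.69 in placebo and ran from 8.27 to 9.84 (median 9.11) with GnRH. Animal 10, at 8.27, was barely above placebo animal 2, at 8.26, and the other treated animals were clearly higher. Serpinb1a rose by 1.06 (SE 0.20, adjusted p = 0.0258). Timp1, a secreted inhibitor of metalloproteases, was at 7.02, 6.88, 6.78, 6.86 and 6.99 in placebo and ran from 7.25 to 8.16 (median 7.69) with GnRH. The groups were apart, and Timp1 rose by 0.79 (SE 0.16, adjusted p = 0.0363), the call least stable to the animals included, lost in 10 of 11 fits without 1 female. Timp1 lies within Syn1, on the opposite strand and with no shared exon base, and Syn1 differed by 0.11 (adjusted p = 0.692). Of 13 serpins and TIMPs tested, 9 differences were positive, the median was 0.13, and 5 were higher and 1 lower at an unadjusted p under 0.05. Serpine2, an inhibitor of thrombin and plasminogen activators that is also a gonadotrope marker, differed by 0.37 (adjusted p = 0.135) with 6 of 6 animals above placebo. A list of 16 metalloproteases and plasminogen activators, classes that some of these inhibitors act on, had a median of -0.04.

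The remaining pair were Slc6a8, the creatine transporter, and Ankrd9, an ankyrin repeat protein. Slc6a8 was at 9.63, 9.72, 9.50, 9.57 and 9.46 in placebo and 10.10, 10.04, 10.01, 10.11, 9.63 and 10.21 in GnRH animals 6 to 11. Only animal 10 was within the placebo range, and Slc6a8 rose by 0.44 (SE 0.08, adjusted p = 0.0144). Ankrd9 was at 6.09, 6.02, 6.03, 5.97 and 5.91 in placebo and ran from 6.23 to 6.32 (median 6.29) with GnRH. It had the smallest rise, 0.29 (SE 0.06, adjusted p = 0.0258), with little spread in either group. Over the 19 genes the differences ran from 0.29 to 2.26 with a median of 0.69, and 16 had a larger SD in the GnRH group than in placebo. Over the 11 fits that each left out 1 female, Timp1 missed the threshold in 10, Rrad, Fdx1 and Ankrd9 in 9, Arrb2 in 8, Chga, Serpinb1a and Nefm in 7, Csrp2 in 6, Pdlim7 in 5, Slc6a8 in 4, Sertad1, Tbkbp1 and Vegfa in 3 and Tnfrsf12a in 1. Fshb, Nefl, Scarb1 and Cited4 passed in all 11. Arrb2 and Chga also missed the threshold after quantile normalization.

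Next to the threshold on the higher side, Dot1l, a histone H3 methyltransferase, differed by 0.36 (adjusted p = 0.0501), with animal 10 at 11.21 inside the placebo range of 11.02 to 11.23 and the others at 11.50 or above. Nab2, a corepressor of EGR factors, was at 10.23, 10.43, 9.70, 10.08 and 10.24 in placebo and ran from 10.39 to 11.07 with GnRH, a difference of 0.70 (adjusted p = 0.0562). Slc4a11, a membrane transporter, and Gch1, the first enzyme of tetrahydrobiopterin synthesis, differed by 0.56 and 0.63 (adjusted p = 0.0562 and 0.0758), each with 5 of 6 above placebo. Grm4, a glutamate receptor, and Plpp1, a lipid phosphatase, differed by 0.32 and 0.33 (adjusted p = 0.0713 and 0.0802). On the lower side no gene passed, the smallest adjusted p being 0.0562. Jakmip1, a microtubule-associated protein of neurons, was at 9.34, 9.78, 9.55, 9.47 and 9.39 in placebo and ran from 9.08 to 9.28 (median 9.25) with GnRH, a difference of -0.30. Tspan2, a tetraspanin, was at 10.74, 10.81, 10.82, 10.79 and 10.85 in placebo and ran from 10.40 to 10.56 (median 10.45), a difference of -0.33. Both had 6 of 6 animals below placebo and the adjusted p of 0.0562. Kif26a, a kinesin-like protein (-0.40), Spsb4, a ubiquitin ligase adaptor (-0.27), and Slain2, a microtubule plus-end protein (-0.29), had 6 of 6 below as well, with adjusted p = 0.087, 0.116 and 0.12, while B3galt6 (-0.28) had 4 and Dach2 (-0.28) had 5. Otof, a calcium sensor of vesicle release that heads the list of regulated exocytosis, had the most negative of these differences, -0.73 (SE 0.19, adjusted p = 0.144), with 4 of 6 below placebo. With GnRH animal 10 left out, Otof (-0.84, adjusted p = 0.0376) and Jakmip1 (-0.31, 0.0275) passed, as did Atf3 (2.30, 0.0275) and Homer1 (1.86, 0.00608) on the higher side. Because animal 10 was chosen by its values, that choice itself favours these calls.

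The immediate early genes, which respond to a stimulus within minutes, gave no call among the AP-1, EGR, NR4A and Krüppel-like lists at 1 hour. At an unadjusted limma p under 0.05, 3 of 7 AP-1 genes, 2 of 6 EGR and NAB genes, 1 of 3 NR4A receptors and 2 of 11 Krüppel-like factors were higher and 0 lower. Fos was at 9.72, 11.42, 12.10, 11.04 and 10.52 in placebo and ran from 9.92 to 11.33 (median 10.44) with GnRH. Egr1 was at 10.38, 12.32, 12.57, 11.43 and 11.55 in placebo and ran from 10.99 to 13.08 (median 11.47). Jun was at 9.08, 9.23, 9.45, 9.27 and 9.05 in placebo and ran from 9.29 to 9.57 (median 9.41). In all 3 the groups overlapped, and for Fos and Egr1 the placebo animals alone spanned more than 2 units. The differences were -0.39 (SE 0.34, adjusted p = 0.721) for Fos, 0.10 (SE 0.36, adjusted p = 0.945) for Egr1 and 0.21 (SE 0.15, adjusted p = 0.667) for Jun, with exact permutation p = 0.413, 0.846 and 0.0476 for the single genes. Egr1 was lower in GnRH than in placebo when placebo animal 1 (-0.22) or GnRH animal 9 (-0.17) was left out. Fosb, a later member of the Fos family, differed by 1.06 (adjusted p = 0.435) with 5 of 6 animals above placebo. Fosl1, which encodes Fra-1 and was picked after its values were seen, differed by 0.51 (adjusted p = 0.522) with 6 of 6 above. Nr4a3, an orphan nuclear receptor, differed by 1.00 (adjusted p = 0.271), and Egr3, picked after its values were seen, by 0.75 (adjusted p = 0.578), each with 5 of 6 above. Apart from Atf3, the 12 other tested ATF and CREB genes lay between -0.18 and 0.17, and the list median was 0.0021.

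A list of 13 genes that neurons switch on with synaptic activity had 11 positive differences, a median of 0.22, and 7 members higher and 0 lower at an unadjusted p under 0.05, none past the adjusted threshold. Homer1, a scaffold of glutamate receptors, was at 9.57, 9.08, 8.64, 9.24 and 8.89 in placebo and 10.80, 10.46, 11.93, 11.12, 8.90 and 10.41 in GnRH animals 6 to 11. Animal 10 was among the placebo animals, the other 5 were higher than all of these, and the difference was 1.52 (SE 0.38, adjusted p = 0.135). Arc and Nptx2, a cytoskeletal protein and a pentraxin of synapses picked after their values were seen, differed by 1.23 and 0.99 (adjusted p = 0.36 and 0.225), with 6 and 5 of 6 above placebo. With GnRH, the SD of Arc was 1.30 in males (n = 8) and 0.53 in females (n = 6). That of Homer1 was 0.75 in males and 1.00 in females. Rheb, an activator of mTOR, differed by 0.40 (adjusted p = 0.12). Of the neuropeptide genes, Npy was at 5.37, 5.18, 5.18, 5.22 and 5.26 in placebo and ran from 5.38 to 7.07 (median 6.05) with GnRH, a difference of 0.89 (SE 0.27, adjusted p = 0.24) with no overlap. The other 8 tested lay between -0.01 and 0.32.

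No gene of the glucocorticoid, clock, steroid receptor or activin lists passed the adjusted threshold. Among 15 glucocorticoid-responsive genes and metallothioneins, 10 differences were positive, the median was 0.21 (0.086 without placebo animal 3 and 0.30 without GnRH animal 10), and 4 were higher and 1 lower at an unadjusted p under 0.05. The metallothioneins Mt1 and Mt2, the latter picked after its values were seen, differed by 0.51 and 0.53 (adjusted p = 0.135 and 0.205), each with 5 of 6 above placebo. Among 19 clock genes 13 differences were positive, the median was 0.20 (0.079 without placebo animal 3 and 0.29 without GnRH animal 10), and 5 were higher and 1 lower at an unadjusted p under 0.05. Clock, an activator of the rhythm, differed by -0.25 (adjusted p = 0.384) with 5 of 6 animals below placebo. Per2, a repressor of the clock that was picked after its values were seen, ran from 9.36 to 11.06 in placebo and from 10.31 to 11.29 with GnRH. The hour of death of each animal is not given in the sources used here. Steroid receptors and their targets had a median of -0.14 over 11 genes, with 0 higher and 2 lower at an unadjusted p under 0.05. Pgr, the progesterone receptor, differed by -0.29 (adjusted p = 0.201) with 5 of 6 animals below placebo. Of the activin and BMP pathway, the ligand list had a median of 0.02 over 13 genes and the receptor and SMAD list a median of -0.07 over 22. Id1 and Id3, targets of BMP signalling, differed by 0.55 and 0.44 (adjusted p = 0.24 and 0.265).

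Housekeeping and growth pathways differed little. The medians were -0.01 for 22 proliferation genes, 0.0016 for 16 genes of ribosome biogenesis, -0.01 for 17 translation factors, 0.05 for 18 ribosomal proteins, -0.04 for 20 genes of the unfolded protein response, 0.04 for 14 heat shock proteins and 0.0039 for 14 interferon-response genes. None of these members passed, and each list had at most 1 member per direction at an unadjusted limma p under 0.05. The 10 transcripts of the mitochondrial genome all had positive differences, between 0.12 and 0.26 with a median of 0.15. That median was 0.02 after quantile normalization, with mt-Co1 at -0.02. Across all 50 pathway lists, the medians ran from -0.14 to 0.47.

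**Figure D3:**
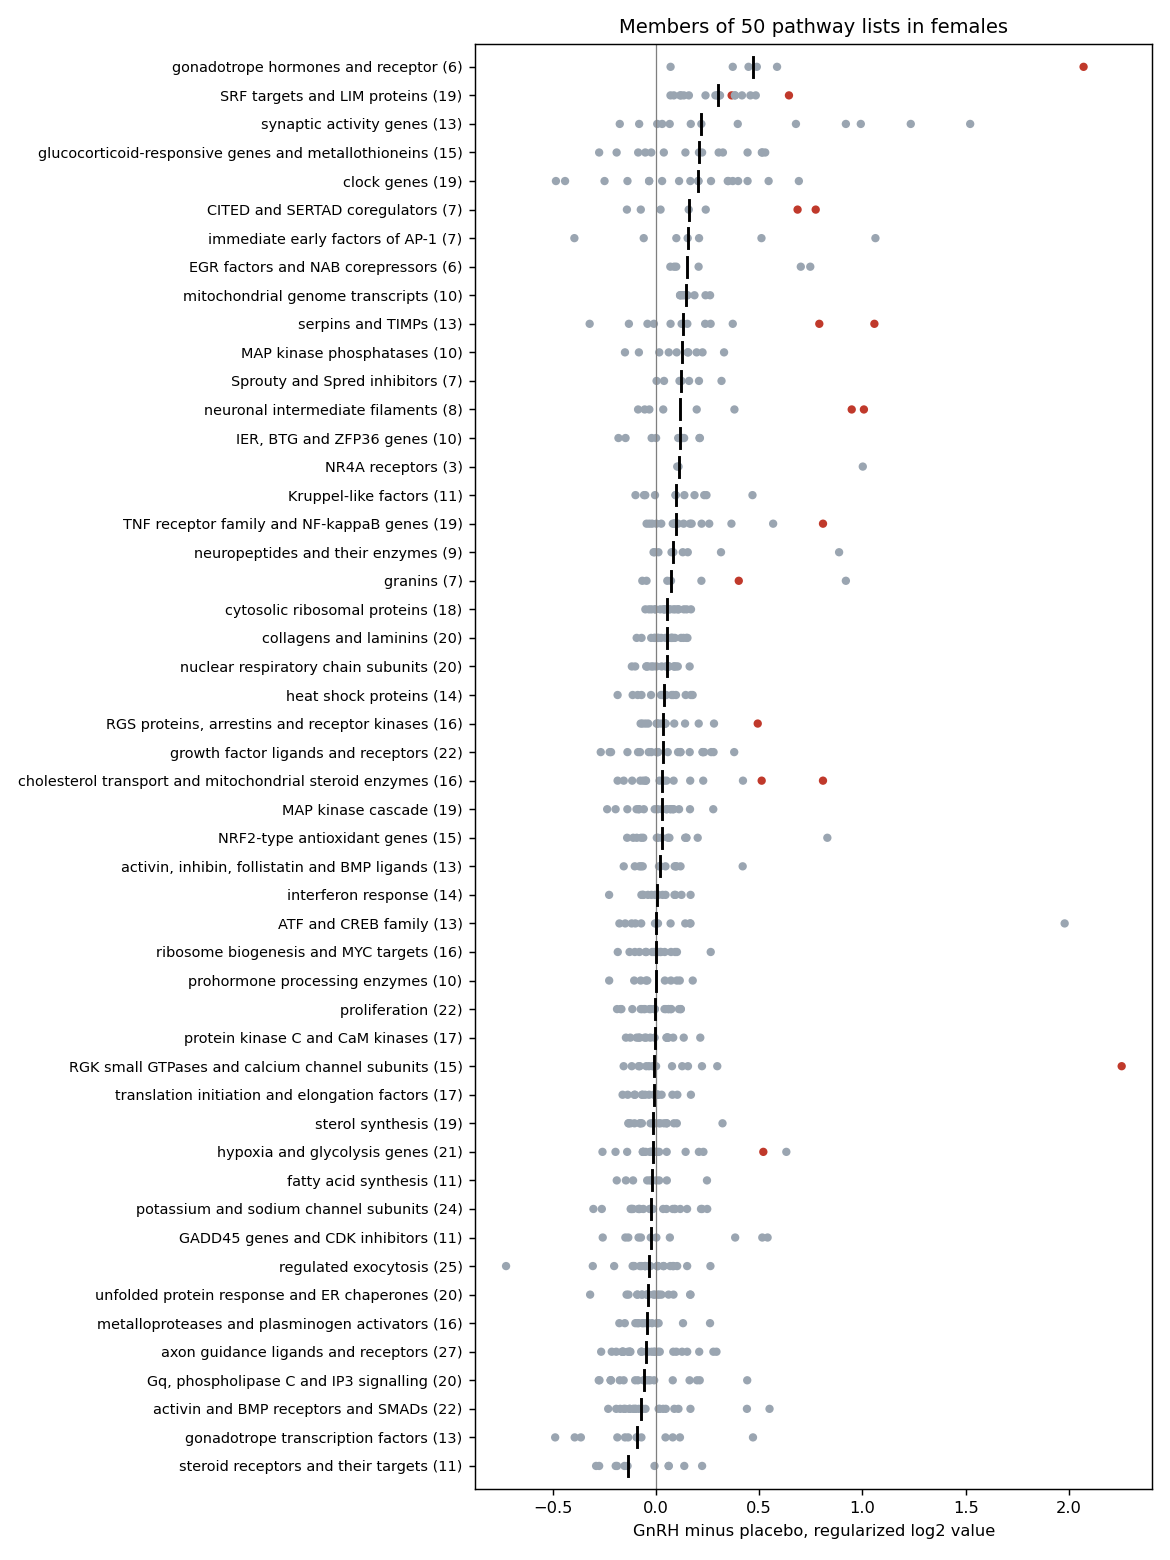
GnRH minus placebo in females (x axis, regularized log2 value) for the members of 50 pathway lists (y axis, number of genes tested in parentheses), with members past the adjusted threshold in red and a black bar at each list's median. Gonadotrope products (0.47) and SRF and LIM genes (0.30) have the highest medians, and steroid receptors and their targets (-0.14) the lowest.

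The markers of the other cell classes gave no call, 0 of 100 genes in 14 lists (limma). At an unadjusted limma p under 0.05, 15 were higher and 1 lower, beside 5.11% and 4.45% of all genes tested. The defining hormones were checked first. Gh was at 21.52, 21.82, 21.48, 21.09 and 21.26 in placebo and ran from 21.24 to 21.92 (median 21.63) with GnRH. Prl was at 17.35, 17.76, 17.60, 16.59 and 16.90 in placebo and ran from 17.23 to 18.18 (median 17.61). Pomc was at 18.53, 17.28, 18.36, 18.24 and 17.79 in placebo and ran from 17.59 to 19.20 (median 18.63). In all 3 the groups overlapped, with differences of 0.16 (SE 0.15, adjusted p = 0.737) for Gh, 0.38 (SE 0.20, adjusted p = 0.547) for Prl and 0.49 (SE 0.29, adjusted p = 0.592) for Pomc. Tshb, of the thyrotropes that also make Cga, was at 12.37, 11.74, 12.08, 12.03 and 13.09 in placebo and ran from 11.87 to 13.01 (median 12.50), a difference of 0.18 (SE 0.29, adjusted p = 0.862). All 4 hormones were detected in every library, so that the tissue fitted its label as pituitary. The median was 0.10 for melanotrope, 0.05 for corticotrope, -0.02 for thyrotrope and -0.03 for lactotrope markers. Without placebo animal 2, the lowest in melanotrope markers, the melanotrope median was -0.13, and without both animals 2 and 9 it was -0.04. Somatotrope markers had a median of 0.06, or -0.07 after quantile normalization. Gnrh1, the gene that carries the deletion in these animals, had a mean value of 3.85 ± 0.09 (SD, n = 5) in placebo and 3.80 ± 0.05 (SD, n = 6) with GnRH. Both means were little above the filter value of 3, and Gnrh1 is normally made in the hypothalamus.

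Among the non-endocrine classes, the endothelial list had the most members past the unadjusted p. Of its 12 genes, 11 differences were positive, the median was 0.15, and 6 were higher and 0 lower at an unadjusted p under 0.05. Tie1, an endothelial receptor, was at 9.21, 9.00, 9.09, 9.26 and 9.05 in placebo and ran from 9.30 to 9.70 (median 9.41) with GnRH, without overlap. Its difference was 0.32 (SE 0.08, adjusted p = 0.151), and that of Flt1, a receptor of Vegfa, was 0.34 (SE 0.10, adjusted p = 0.205). The endothelial list mean ran from 8.85 to 9.11 in placebo and from 9.03 to 9.29 in GnRH animals. Stem and folliculostellate cells had a median of 0.03 over 13 genes, while the keratins Krt18 and Krt8 differed by 0.39 and 0.55 (adjusted p = 0.0997 and 0.24). Their defining factor Sox2 differed by -0.16. Mgp, a matrix protein of pericytes and fibroblasts, differed by 0.55 (adjusted p = 0.0979) with 5 of 6 animals above placebo.

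Markers of the posterior lobe and of red blood cells varied between animals more than between groups. Whether the dissection of the glands differed was not tested. Placebo animal 2 and GnRH animal 9 had the lowest levels of posterior lobe pituicyte markers in their groups. In placebo animal 2 the mean of the 7 pituicyte genes was 7.48, against a highest placebo mean of 8.73, and in GnRH animal 9 it was 8.07, against a highest GnRH mean of 8.44. The neurohypophysial peptide Oxt was at 6.23 in animal 2 and 6.63 in animal 9, and between 7.09 and 7.41 in the other 9 females. Melanotrope markers, from the intermediate lobe, were also lowest in animal 2, with a list mean of 9.82 against 11.18 in the highest placebo animal. With both animals left out, a setting added after the data were seen, 18 genes were higher and 1 lower, and 12 of them were among the 19. Rrad, Nefm, Serpinb1a, Timp1, Arrb2, Tbkbp1 and Ankrd9 were not past the threshold in that smaller set. Placebo animal 5 had the most red blood cell RNA, with a list mean of 12.94 against 9.81 in the lowest placebo animal and 10.15 to 11.29 in the GnRH group. The labels' protocols describe a depletion of globin RNA during library preparation.

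**Figure D4:**
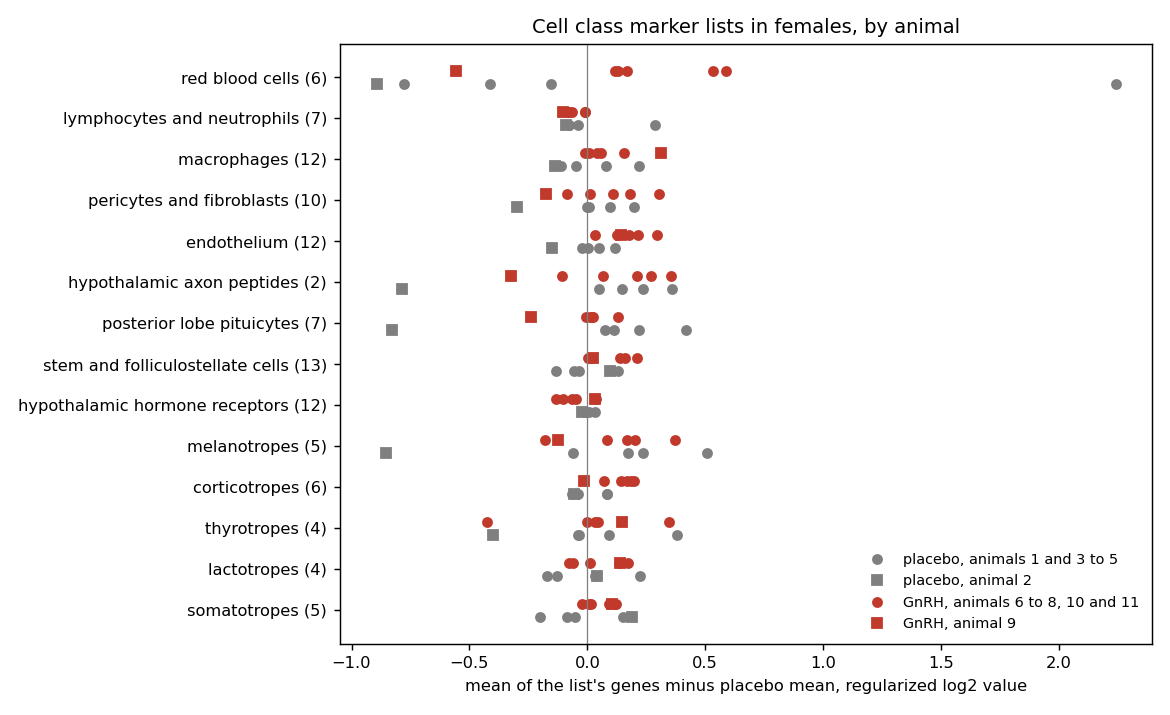
Mean of the marker genes of 14 cell classes in each female, minus the placebo mean (x axis, regularized log2 value), with the number of genes tested in parentheses (y axis). Placebo animal 2 (grey square) is low in pituicytes, axon peptides and melanotropes, placebo animal 5 stands apart in red blood cells (list mean 12.94), and most endothelial values of GnRH animals lie to the right.

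In the males of the study, fitted in the same model, 86 genes were higher (0.449%) and 9 lower (0.047%) with GnRH. The male contrast had 6 against 8 animals and the female contrast 5 against 6. Its SE was smaller for that reason, so the numbers of calls in the sexes are not directly comparable. All 19 genes that rose in females had a positive difference in males, and 15 passed there as well. The 4 that did not pass in males were Slc6a8 (0.44 in females, 0.25 in males, male adjusted p = 0.14), Sertad1 (0.69 and 0.46, 0.0588), Ankrd9 (0.29 and 0.19, 0.0773) and Pdlim7 (0.37 and 0.26, 0.0599). For Fshb the male difference was 2.77 (SE 0.24) against 2.07 (SE 0.27) in females, and the difference between the sexes, -0.70, had an unadjusted p of 0.0679. The female effect minus the male effect, tested by the interaction contrast in limma, passed for 0 genes (0%), with 529 genes at an unadjusted p under 0.05 (2.76%) and a smallest adjusted p of 0.999. None of the 19 was among the 529. Among the genes below placebo, Jakmip1, Dach2, Spsb4 and Slain2 differed in males by -0.04, 0.01, 0.03 and -0.02, with unadjusted interaction p of 0.00518, 0.00257, 0.00213 and 0.00856, each with an adjusted p of 0.999. Tspan2, Kif26a and B3galt6 differed by -0.23, -0.22 and -0.14 in males, with unadjusted interaction p of 0.299, 0.156 and 0.12. All of these genes were chosen for a small p in females. The interaction contrast uses the same female values, so the choice alone favours small interaction p. No difference between the sexes can be read from them. Otof fell in males by 0.99 (adjusted p = 0.00263), and its unadjusted interaction p was 0.304. Gata2 differed by -0.50 in males (adjusted p = 0.0216), next to -0.49 in females.

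**Figure D5:**
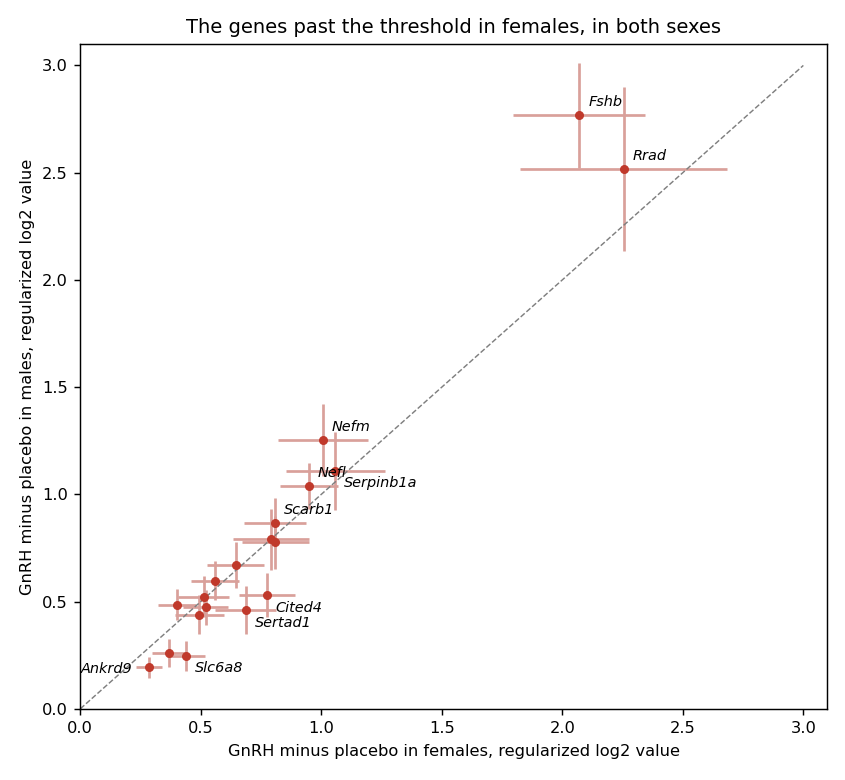
GnRH minus placebo in females (x axis) and in males (y axis), regularized log2 value, for the 19 genes that rose in females, with 1 SE in each direction and a dashed line of equality. All 19 points are positive in both sexes, with Fshb (2.07 and 2.77) and Rrad (2.26 and 2.52) farthest out.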

How the data were processed

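RNA from whole pituitaries was sequenced after selection of polyadenylated RNA and depletion of ribosomal and globin transcripts, per the labels' protocols, with RNA integrity numbers above 8.2 and a median of 9.1. The authors deposited regularized log2 values per gene, per the file's name, which are scaled between libraries and shrunken before deposit. The tools named in the submitters' processing notes are STAR, featureCounts and bcl2fastq, with the build mm10. Their versions, the annotation and the strand setting are not given in the labels or the table, and the analysis had no counts, so that depth is unknown and no counting interval could be given. The table held 47069 genes, 13765 of them at 0 in every library, and no sample column was left unused.

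Groups came from the labels. A linear model over the 25 libraries, with 1 mean for each combination of sex and treatment, was fitted in limma 3.58.1 (R 4.3.3; moderated variance with a trend on the mean, 21 residual degrees of freedom) for the 19141 genes with a mean of at least 3, and adjusted p-values are by the Benjamini-Hochberg method over these. Nothing in the labels says more of how the animals were bred or housed, so the animals were taken as independent. The limma p rest on the spread between animals within groups, pooled over the 25 libraries, males included. Single genes had two-sided exact permutation tests. On simulated data the female contrast recovered 80% of changes of 0.5 and 100% of changes of 1 and 2. Of the calls, 6.6% were unchanged genes. The simulation gave genes no shared noise and gave each gene the same spread in every group. In the animals, 16 of the 19 genes that rose had a larger SD with GnRH than with placebo. In the animals, 11 genes differed by at least 1, and of these only Rrad, Fshb, Serpinb1a and Nefm passed. Atf3 (1.98), Homer1 (1.52) and Arc (1.23) did not, so the simulated rates cannot be read as the share of real changes found.

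The genes, the 64 lists (869 members, 847 genes, 819 of them tested) and the tests were chosen with earlier results of these data known, and the lists are described by counts and medians only. Named genes are those past the threshold, Fshb, Lhb, Cga, Gnrhr, Atf3, Fos, Jun and Egr1, up to 2 members per list by smallest p, and the 8 nearest the threshold in each direction (1 list member is not reported here); others are said to be picked after their values were seen, except Gh, Pomc, Gnrh1 and Syn1, picked for what they are, and genes that only fill out a list. Gene positions are from GENCODE vM21. Alternatives changed the libraries fitted, the filter, the scaling and the variance model, or left out 1 female at a time.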

Additional observations from a re-analysis of the deposited data

Results flagged for a closer look

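In each group of 5 or 6 animals, the highest or lowest value of each named gene was compared with its nearest neighbour by Dixon's ratio at the 95% level. Of 332 pairs of gene and group, 22 held an outlying animal, and chance alone flags about 1 in 20 groups. Animal 10 of the GnRH group was low in Slc6a8 (9.63), Btg1 (10.69), Dot1l (11.21) and Egr3 (6.61), and high in Hspa8 (14.68) and Nr5a1 (10.07). GnRH animal 9 was low in Lhb (10.49), Nkx2-1 (6.20), Oxt (6.63) and Mt2 (10.60), and GnRH animal 6 was high in Mcm3 (7.52).

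Placebo animal 2 was low in Dio2 (10.13), Avp (5.75), Oxt (6.23), Scn2b (9.05) and Efna5 (9.17), and high in Sstr3 (9.56). Placebo animal 5 was high in Hba-a1 (15.60) and Hba-a2 (14.67), and low in Rem2 (8.78) and Polr1b (8.76). Placebo animal 4 was high in Hspd1 (11.36).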

How the results depend on the processing

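Leaving out 1 female at a time moved the higher calls between 4 and 60 and the lower calls between 0 and 7; the higher calls were 12, 7 and 5 without placebo animals 1, 3 and 5, 4, 12 and 6 without GnRH animals 6, 7 and 11, and 60 without GnRH animal 10. With no filter on low values 7 genes were higher, and with library quality weights 55 were higher and 7 lower. Lower calls numbered 1 with the female libraries alone, 2 with a mean of at least 6 and 1 with animals 2 and 9 both left out. With the female libraries alone 13 genes were higher, 11 of them among the 19, and Nefm, Serpinb1a, Csrp2, Pdlim7, Chga, Fdx1, Ankrd9 and Slc6a8 did not pass. Fshb, Nefl, Scarb1 and Cited4 passed in all 11 fits without 1 female and in the 10 other settings. No gene passed for the difference between the sexes in any setting run.

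Some small differences changed sign. Without 1 female, Egr1 ran from -0.22 (placebo animal 1 out) to 0.33, with -0.17 without GnRH animal 9. Dio2 ran from -0.21 to 0.064 (animal 10 out), with 0.014 and 0.0095 without animals 1 and 5. Oacyl ran from -0.068 (animal 2 out) to 0.34 and Esm1 from -0.078 (animal 2 out) to 0.29. Nkx2-1 ran from -0.26 to 0.046 (animal 9 out), with 0.039 and 0.018 without animals 3 and 4. Avp ran from -0.086 (animal 2 out) to 0.19, with -0.011 without animal 11, and Oxt from -0.15 (animal 2 out) to 0.16. With both animals 2 and 9 out, Esm1, Avp and Oxt were at -0.016, -0.025 and -0.050, and mt-Co1 was at -0.024 after quantile normalization. The cause was not tested. No paired analysis was possible because no replicate number is shared between groups. Depth is unknown, so its bearing on low genes could not be gauged.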
